A study of Mus musculus with 2 samples.

Results

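The Akr1b genes of the mouse code for the aldose reductase family, cytosolic enzymes of the aldo-keto reductase superfamily that use NADPH to reduce aldehydes and ketones. The 4 genes Akr1b3, Akr1b7, Akr1b8 and Akr1b10 were taken by gene name from long-read RNA sequencing of adrenal gland, in which a transcript is read as 1 long molecule. They held 88 of the 130376 transcript models in replicate 1 and 75 of the 118745 models in replicate 2, and are 4 of the 17707 annotated genes with a read. The series has 1 group of 2 libraries, labelled biological replicates 1 and 2, made from 1 µg of total RNA each from adrenals of female B6CASTF1/J mice, an F1 hybrid strain, aged 18 to 20 months. The mice carried no labelled treatment or engineered allele. The biosample descriptions number different females, but both name the same donor entry. Whether the libraries come from separate animals is therefore not settled in the sources used here. The p-values below compare the counts of these libraries, and those of the binomial and Fisher tests cover counting error alone. Reads from the parental alleles of the hybrid were not separated in the deposited counts.

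Akr1b3 is mouse aldose reductase, the enzyme that turns glucose into sorbitol in the polyol pathway. Akr1b7 was first described as a protein of the vas deferens and is known in the adrenal cortex as a gene induced by the pituitary hormone ACTH. Its enzyme reduces isocaproaldehyde, the aldehyde released when the cholesterol side chain is cut in steroid synthesis, and products of lipid peroxidation, and it can make prostaglandin F2α. Akr1b8 was found as a gene induced by fibroblast growth factor, and its enzyme reduces a range of aldehydes. Akr1b10 codes for a close relative of these enzymes. In bulk tissue, fewer cells of a type and less RNA per cell cannot be told apart.

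The 4 genes lie within 121 kb of chromosome 6 in the mm10 build. Akr1b3 (ENSMUSG00000001642.18) spans chr6:34302434-34317478 on the minus strand. The other genes follow on the plus strand, Akr1b8 (ENSMUSG00000029762.6) at chr6:34354119-34368463, Akr1b10 (ENSMUSG00000061758.13) at chr6:34384218-34396950 and Akr1b7 (ENSMUSG00000052131.7) at chr6:34412334-34423142. In GENCODE M21 each has a main coding transcript of 10 exons, and the coding parts of these exons have the same lengths in all 4 genes, 948 bases in all without the stop codon. Position by position, Akr1b7 and Akr1b10 shared 89.2% of coding bases, Akr1b7 and Akr1b8 shared 84.8%, and Akr1b8 and Akr1b10 shared 84.7%. Akr1b3 was farther from each of them, at 72.0% to Akr1b7, 71.6% to Akr1b10 and 70.9% to Akr1b8. The coding parts of exon 1 are shown because they carry both the shared frame of the family and the differences between its genes. They are given 5′ to 3′ from the GENCODE M21 transcripts, at chr6:34317340-34317405 (minus strand) for Akr1b3 and on the plus strand at chr6:34412410-34412475 for Akr1b7, chr6:34354231-34354296 for Akr1b8 and chr6:34384342-34384407 for Akr1b10, with capitals at each position that is not the same in all 4 genes.
Akr1b3 exon 1: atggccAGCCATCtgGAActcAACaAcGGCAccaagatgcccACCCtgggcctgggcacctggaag
Akr1b7 exon 1: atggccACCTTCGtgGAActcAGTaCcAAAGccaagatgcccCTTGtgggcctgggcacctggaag
Akr1b8 exon 1: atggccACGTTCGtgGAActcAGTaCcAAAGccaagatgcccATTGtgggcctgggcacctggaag
Akr1b10 exon 1: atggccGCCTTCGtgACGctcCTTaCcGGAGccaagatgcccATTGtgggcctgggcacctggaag
Of these 66 bases, 44 were the same in all 4 genes. Akr1b7 and Akr1b8 differed at 2 of the 66 positions, whereas Akr1b7 and Akr1b10 differed at 9.

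Exon 5 was the coding exon in which Akr1b7, Akr1b8 and Akr1b10 were most alike. Akr1b7 and Akr1b10 differed there at 3 of 123 bases and Akr1b8 and Akr1b10 at 2 of 123. It is shown for Akr1b7 (chr6:34418994-34419116) and Akr1b10 (chr6:34392017-34392139), both on the plus strand, because a joined model of these genes described further on uses it. Capitals mark the positions at which the pair differs.
Akr1b7 exon 5: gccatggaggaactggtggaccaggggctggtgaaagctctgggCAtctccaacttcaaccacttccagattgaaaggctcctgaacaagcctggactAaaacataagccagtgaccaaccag
Akr1b10 exon 5: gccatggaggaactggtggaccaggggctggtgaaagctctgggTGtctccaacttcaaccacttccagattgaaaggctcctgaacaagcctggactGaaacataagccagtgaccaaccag
The last coding exon differed most among these 3 genes, with 75% of bases shared between Akr1b7 and Akr1b10 and 52.5% between Akr1b7 and Akr1b8. The longest identical coding run was 59 bases between Akr1b7 and Akr1b10 and 80 bases between Akr1b8 and Akr1b10. Over the whole coding sequence Akr1b7 and Akr1b10, the pair with the highest identity, differed at 102 positions. A read of the full transcript therefore carries many positions that separate the genes, while a short fragment within exon 5 carries few.

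**Figure D1:**
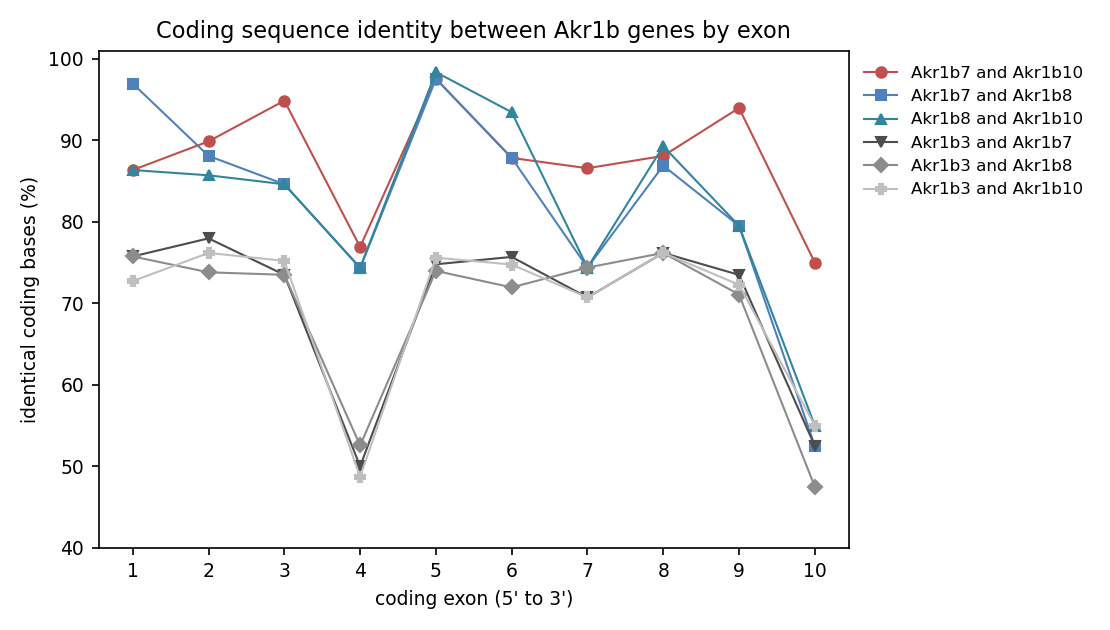
Share of identical coding bases (y axis, %) in each of the 10 coding exons (x axis, 5′ to 3′) for the 6 pairs of Akr1b genes, from the GENCODE M21 main coding transcripts. The pair of Akr1b7 and Akr1b10 stays between 75% and 97.6%, and the 3 pairs with Akr1b3 stay at or below 78.0%.

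Akr1b7 was the main Akr1b transcript of the gland. It had 4015 reads in replicate 1 and 1859 reads in replicate 2, which is 2842 CPM, reads per 1000000 reads of annotated genes (95% interval 2754 to 2931), in replicate 1 and 1990 CPM (interval 1901 to 2083) in replicate 2. Its mean level of 2416 ± 602 CPM (SD, n = 2) placed it 27th of the 17707 genes with a read. Intervals here and below are exact Clopper-Pearson intervals and cover counting error only.

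Akr1b8 came next, at 253 CPM in replicate 1 (357 reads, interval 227 to 280 CPM), against 354 CPM in replicate 2 (331 reads, interval 317 to 395 CPM), a mean of 304 ± 71.9 CPM. Akr1b3 stood at 172 CPM in replicate 1 (243 reads, interval 151 to 195 CPM), against 168 CPM in replicate 2 (157 reads, interval 143 to 197 CPM), a mean of 170 ± 2.74 CPM. Akr1b10 was the lowest, at 69.4 CPM in replicate 1 (98 reads, interval 56.3 to 84.5 CPM), against 57.8 CPM in replicate 2 (54 reads, interval 43.4 to 75.4 CPM), a mean of 63.6 ± 8.16 CPM. The order Akr1b7, Akr1b8, Akr1b3, Akr1b10 held in both libraries, and within each library no interval overlapped that of its neighbour in this order. By mean level Akr1b8, Akr1b3 and Akr1b10 ranked 544th, 1212th and 3213th.

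**Figure D2:**
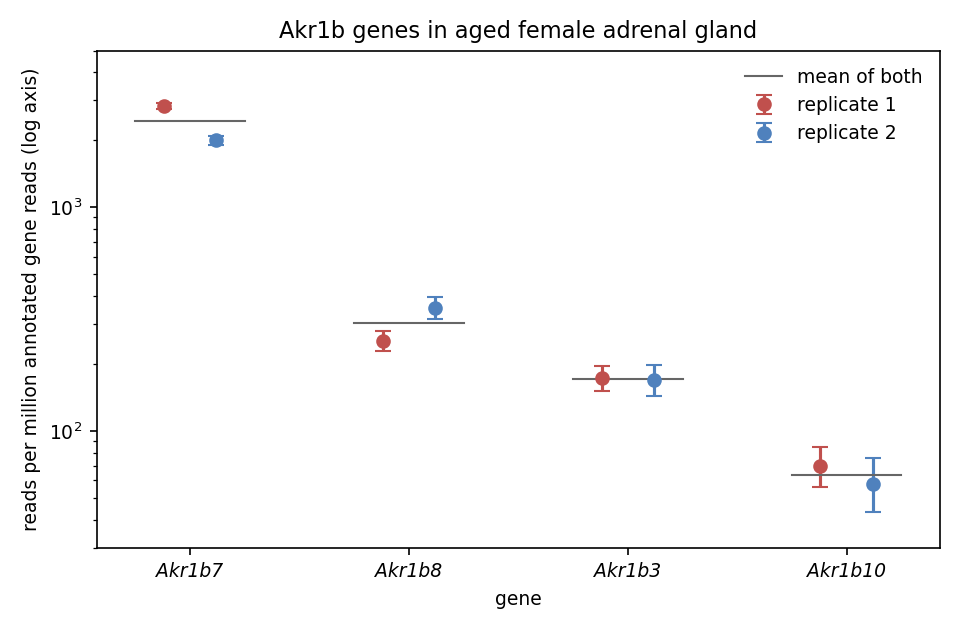
Level of each Akr1b gene (y axis, CPM, log axis) in replicate 1 (red) and replicate 2 (blue) with exact 95% intervals and the mean of both (grey line). Akr1b7 stands at 2842 CPM in replicate 1 and 1990 CPM in replicate 2, far above the other 3 genes, which lie between 57.8 and 354 CPM.

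Together the 4 genes took 4713 reads (3336 CPM) in replicate 1 and 2401 reads (2571 CPM) in replicate 2. Akr1b7 made up 85.2% of these reads in replicate 1 (interval 84.1 to 86.2%), against 77.4% in replicate 2 (interval 75.7 to 79.1%). Akr1b8 made up 7.57% (interval 6.84 to 8.37%) in replicate 1, against 13.8% (interval 12.4 to 15.2%) in replicate 2. These intervals, which cover counting error only, do not overlap between the libraries, for Akr1b7 or for Akr1b8. How often such shares differ as far in other gene families was not computed. Akr1b3 held 5.16% of the family reads in replicate 1 and 6.54% in replicate 2, and Akr1b10 held 2.08% in replicate 1 and 2.25% in replicate 2. Set against length, which for the main transcripts ran from 1281 bases in Akr1b7 to 1387 bases in Akr1b3, the order did not change. On the scale of CPM per kb, Akr1b7 stood 17.9-fold above Akr1b3 in replicate 1 and 12.8-fold above it in replicate 2, and 43.8-fold above Akr1b10 in replicate 1 and 36.8-fold in replicate 2.

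Akr1b7 and Akr1b8 differed between the libraries in opposite directions, and no difference was called for Akr1b3 or Akr1b10. Akr1b7 was 1.46-fold higher in replicate 1 than in replicate 2 (interval 1.38 to 1.54) after TMM scaling, a log2 ratio of 0.55 (adjusted p = 1.94e-40 by an exact binomial test, two-sided, adjusted by Benjamini-Hochberg over 11068 genes). Akr1b8 stood in replicate 1 at 0.729 of its replicate 2 level (interval 0.626 to 0.849), a log2 ratio of -0.46 (adjusted p = 9.72e-04, same exact test). The log2 ratio of Akr1b3 was 0.06 (adjusted p = 0.949) and its fold of replicate 1 over replicate 2 was 1.05 (interval 0.852 to 1.29). That of Akr1b10 was 0.29 (adjusted p = 0.593), with a fold of 1.23 (interval 0.871 to 1.74). Of all genes tested, 11.6% passed this test, 5.88% higher in replicate 1 and 5.74% higher in replicate 2, so such a call was not rare among genes at large.

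The binomial test covers counting error alone. With a between-library spread shared by all genes, a coefficient of variation of 21.5%, edgeR's exact test called 27 genes (0.244%), and the adjusted p was 1 for each of the 4 Akr1b genes (unadjusted p = 0.220 for Akr1b7 and 0.322 for Akr1b8, the lowest of the 4). That spread was estimated from these same 2 libraries taken as 1 group. The test therefore asks whether a gene differs more than genes at large do between this pair. It holds no independent measure of the spread between replicates. The call for Akr1b8 was also lost with scaling to the ERCC spike-in RNAs, which moved the median log2 ratio of all genes to 0.32. On that scale Akr1b8 had a log2 ratio of -0.13 (adjusted p = 0.492, exact binomial test) and Akr1b3 one of 0.39 (adjusted p = 0.0423, same exact test).

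Some markers of several adrenal cell types moved with these differences, and their part in them was not tested. The tissue label was checked against 4 adrenal cortex markers, Cyp11a1, Star, Cyp21a1 and Hsd3b1, which summed to 51721 CPM in replicate 1 and 57726 CPM in replicate 2. Cyp11b1, the zona fasciculata enzyme that makes corticosterone, stood at 20398 CPM in replicate 1 and 13534 CPM in replicate 2. Set against Cyp11b1, Akr1b7 had 13.9 reads per 100 Cyp11b1 reads in replicate 1 and 14.7 in replicate 2, so the libraries differed less on this scale than in CPM. The other cortex markers did not level it. Akr1b7 had 18.2 reads per 100 of Cyp21a1 in replicate 1 and 11.1 in replicate 2, 14.8 per 100 of Cyp11a1 in replicate 1 and 10.8 in replicate 2, and 34.0 per 100 of Star in replicate 1 and 15.9 in replicate 2. Akr1b8 was lower in replicate 1 against 3 of these markers and higher against Star. It had 1.24 reads per 100 of Cyp11b1 in replicate 1 and 2.62 in replicate 2, 1.62 per 100 of Cyp21a1 in replicate 1 and 1.98 in replicate 2, 1.31 per 100 of Cyp11a1 in replicate 1 and 1.92 in replicate 2, and 3.03 per 100 of Star in replicate 1 and 2.83 in replicate 2.

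The X-zone markers Akr1c18 and Pik3c2g summed to 320 CPM in replicate 1 and 2838 CPM in replicate 2, both with reads in both libraries. The 3 macrophage markers Lyz2, Cd74 and C1qa summed to 382 CPM in replicate 1 and 621 CPM in replicate 2. Cd74 (137 CPM in replicate 1, 329 CPM in replicate 2) and C1qa (40.3 CPM in replicate 1, 80.3 CPM in replicate 2) went in the direction of Akr1b8. Lyz2 was nearly level, at 205 CPM in replicate 1 and 212 CPM in replicate 2. Skeletal muscle markers, of which Acta1, Ckm and Tnnt3 had 0 reads in replicate 2, summed to 716 CPM in replicate 1 and 2.14 CPM in replicate 2. The 6 adipocyte markers summed to 5772 CPM in replicate 1 and 4290 CPM in replicate 2. Of these, Ucp1 had 1687 CPM in replicate 1 and 602 CPM in replicate 2. Plin1 (452 CPM in replicate 1, 245 CPM in replicate 2), Adipoq (280 CPM in replicate 1, 221 CPM in replicate 2) and Cfd (2227 CPM in replicate 1, 2103 CPM in replicate 2) were also called higher in replicate 1 by the binomial test. Cidea had 637 CPM in both. Fabp4 was also nearly level, at 488 CPM in replicate 1 and 483 CPM in replicate 2. The 4 medulla markers summed to 6908 CPM in replicate 1 and 5331 CPM in replicate 2, and the 2 glomerulosa markers to 1750 CPM in replicate 1 and 1223 CPM in replicate 2. Within these sets Pnmt of the medulla (312 CPM in replicate 1, 363 CPM in replicate 2) went the other way. So did Dab2 of the glomerulosa (79.3 CPM in replicate 1, 87.8 CPM in replicate 2), and neither was called. Of the other tissues, kidney markers summed to 4.95 CPM in replicate 1 and 4.28 CPM in replicate 2, with Umod, Slc12a1 and Lrp2 at 0 reads, and intestinal markers to 4.95 CPM in replicate 1 and 5.35 CPM in replicate 2, with Fabp2 at 0. Liver markers summed to 161 CPM in replicate 1 and 125 CPM in replicate 2, nearly all of it Cyp2e1. Of the ovary and oviduct markers, Ovgp1 and Amh had 0 reads, and Foxl2 had 25 reads in replicate 1 and 1 read in replicate 2. Endothelial markers summed to 234 CPM in replicate 1 and 254 CPM in replicate 2, and fibroblast markers to 95.5 CPM in replicate 1 and 105 CPM in replicate 2.

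Most reads of each Akr1b gene matched its annotated coding transcript from first to last exon. This is common among genes. Over 6413 genes read at least 20 times in both libraries, the median share on annotated transcripts was 80.3% in replicate 1 and 76.9% in replicate 2. The transcript Akr1b7-201 took 91.2% of Akr1b7 reads in replicate 1 (3660 of 4015, interval 90.2 to 92.0%), against 83.7% in replicate 2 (1556 of 1859, interval 81.9 to 85.4%). Akr1b8-201 took 86.6% (309 of 357, interval 82.6 to 89.9%) in replicate 1, against 75.5% (250 of 331, interval 70.5 to 80.1%) in replicate 2. For both genes the main transcript held a larger share in replicate 1, by 7.46 points for Akr1b7 (adjusted p = 1.24e-13) and by 11.03 points for Akr1b8 (adjusted p = 0.0190), by Fisher's exact test, two-sided, adjusted over all genes by Benjamini-Hochberg. Of the 6223 genes that this test covered, 2.39% passed it. Fisher's test, here and for the introns below, covers counting error alone and holds no spread between libraries. Akr1b3-201 took 86.4% of Akr1b3 reads in replicate 1 and 87.3% in replicate 2, and Akr1b10-201 took 81.6% of Akr1b10 reads in replicate 1 and 81.5% in replicate 2 (adjusted p = 1 for each, same exact test).

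**Figure D3:**
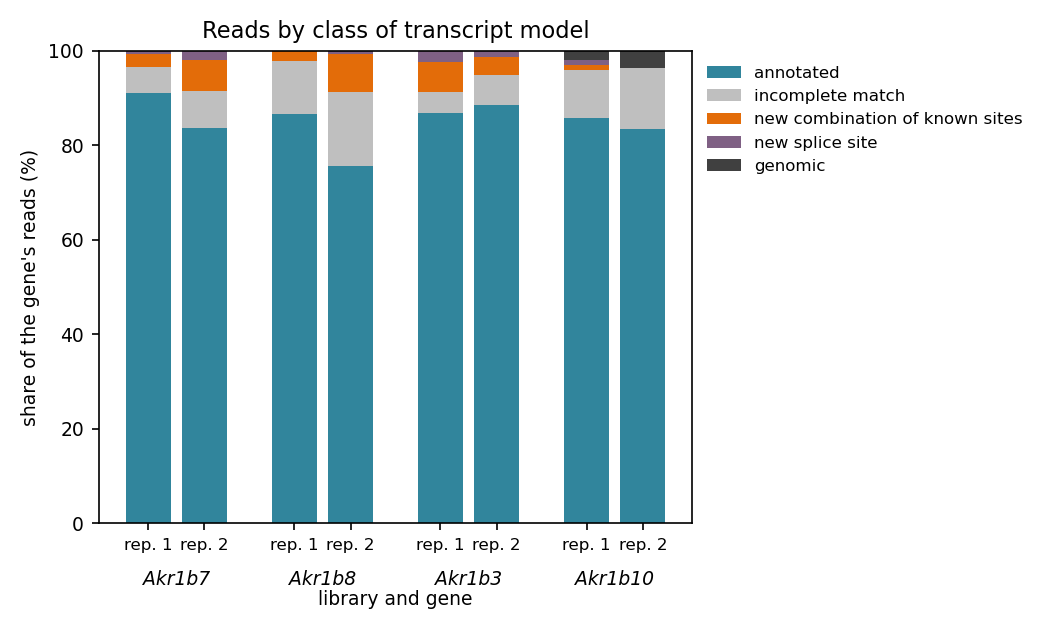
Share of each gene's reads (y axis, %) by class of transcript model, with replicate 1 to the left of replicate 2 for each gene (x axis). Annotated transcripts take 75.5% to 91.2% of the reads, and the lowest share is that of Akr1b8 in replicate 2.

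The remaining reads fell on many rare models. Pooled by intron chain, Akr1b7 had 70 isoforms, of which 23 were seen in both libraries and 40 rested on 1 read in all. Akr1b3 had 20, Akr1b8 16 and Akr1b10 14 isoforms. With at least 5 reads in a library there were 13 isoforms of Akr1b7, 5 of Akr1b8, 4 of Akr1b3 and 1 of Akr1b10. Incomplete matches, which hold only part of an annotated intron chain, took 5.43% of Akr1b7 reads in replicate 1 and 7.69% in replicate 2, and 11.2% of Akr1b8 reads in replicate 1 and 15.7% in replicate 2. Over 6413 genes read at least 20 times in both libraries, the median share of incomplete matches was 6.88% in replicate 1 and 8.00% in replicate 2.

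Among the incomplete Akr1b7 matches, those lacking the 5′ part led. The form with the intron chain of the last 7 exons counted 50 reads in replicate 1 and 36 in replicate 2. Its deposited model begins inside intron 3 in replicate 1 and at the last base of exon 3, so with all of intron 3, in replicate 2. Its reads were counted as keeping intron 3 in neither library. The form with the last 6 exons counted 45 reads in replicate 1 against 35 in replicate 2, the form with the last 9 exons 48 against 26, and that with the last 8 exons 20 against 7. Shorter 3′ parts followed, with 5 exons (14 reads in replicate 1, 6 in replicate 2), 4 exons (15 in replicate 1, 8 in replicate 2) and 2 exons (5 in replicate 1, 4 in replicate 2). Unspliced pieces numbered 5 in replicate 1 and 6 in replicate 2, and a 5′ part of 3 exons 1 in replicate 1 and 5 in replicate 2. By the deposited models, 94.5% of Akr1b7 reads in replicate 1 and 92.5% in replicate 2 reached exon 1, and 99.8% in replicate 1 and 99.6% in replicate 2 reached exon 10. For Akr1b8, 89.1% of reads in replicate 1 and 84.3% in replicate 2 reached exon 1, while all 357 reads in replicate 1 and all 331 in replicate 2 reached exon 10. A single-exon model on the last exon accounted for 22 Akr1b8 reads in replicate 1 (6.16%), against 33 in replicate 2 (9.97%). Its form without exon 1 numbered 5 reads in replicate 1 and 4 in replicate 2, and its last 5 exons 3 in replicate 1 and 6 in replicate 2. In Akr1b3 the last 9 exons were read 5 times in replicate 1 and 2 times in replicate 2, and the last 5 exons 4 times in replicate 1 and 5 times in replicate 2. Exon 1 was reached by 94.2% of Akr1b3 reads in replicate 1 and 92.4% in replicate 2, and by 85.7% of Akr1b10 reads in replicate 1 and 83.3% in replicate 2.

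An Akr1b7 transcript that keeps intron 3 was rarer in replicate 1. It runs over the whole gene in 9 exons and 2329 bases, and joins exons 3 and 4 through the 1048-base intron at chr6:34416235-34417282. It had 34 of 4015 reads in replicate 1 (0.847%, interval 0.587 to 1.18%) and 112 of 1859 reads in replicate 2 (6.02%, interval 4.99 to 7.20%). Over all models, the intron was kept in 38 reads and spliced in 3827 in replicate 1, and kept in 131 and spliced in 1624 in replicate 2. That is 0.983% of informative reads in replicate 1 (interval 0.697 to 1.35%), against 7.46% in replicate 2 (interval 6.28 to 8.79%). The kept share was lower in replicate 1, at 0.132 of that in replicate 2 (adjusted p = 3.90e-33, Fisher's exact test, two-sided, adjusted by Benjamini-Hochberg over 10746 annotated introns).

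Akr1b8 had a like form for intron 5, of 267 bases at chr6:34363455-34363721, whose length is a multiple of 3. The 9-exon transcript of 1625 bases that keeps it had 7 reads in replicate 1 and 25 in replicate 2. Over all models the intron was kept in 8 of 329 reads in replicate 1 (2.43%, interval 1.06 to 4.73%) and 27 of 287 in replicate 2 (9.41%, interval 6.29 to 13.4%; adjusted p = 0.00916, same exact test). The test of kept introns was chosen after these forms had been seen, so it describes them and is not independent of them. The test took the 10746 introns with a kept read in either library, of 49306 measured. Of those tested, 3.31% passed it, and 2.97% passed it with the higher share in replicate 2. Among introns with at least 50 informative reads in each library, 358 of 7206 passed. Over all 49306 measured introns, each with 20 or more informative reads per library, 1.16% of informative reads kept the intron in replicate 1 and 1.65% in replicate 2. The kept share of Akr1b7 intron 3 was above that of 90.3% of these introns in replicate 1 and of 96.0% in replicate 2, and that of Akr1b8 intron 5 above 94.3% in replicate 1 and 96.8% in replicate 2. These ranks are high for any kept read, as only 7172 of the introns had one in replicate 1 and 8533 in replicate 2. In replicate 1 the 0.983% of Akr1b7 intron 3 lay below the pooled 1.16%.

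**Figure D4:**
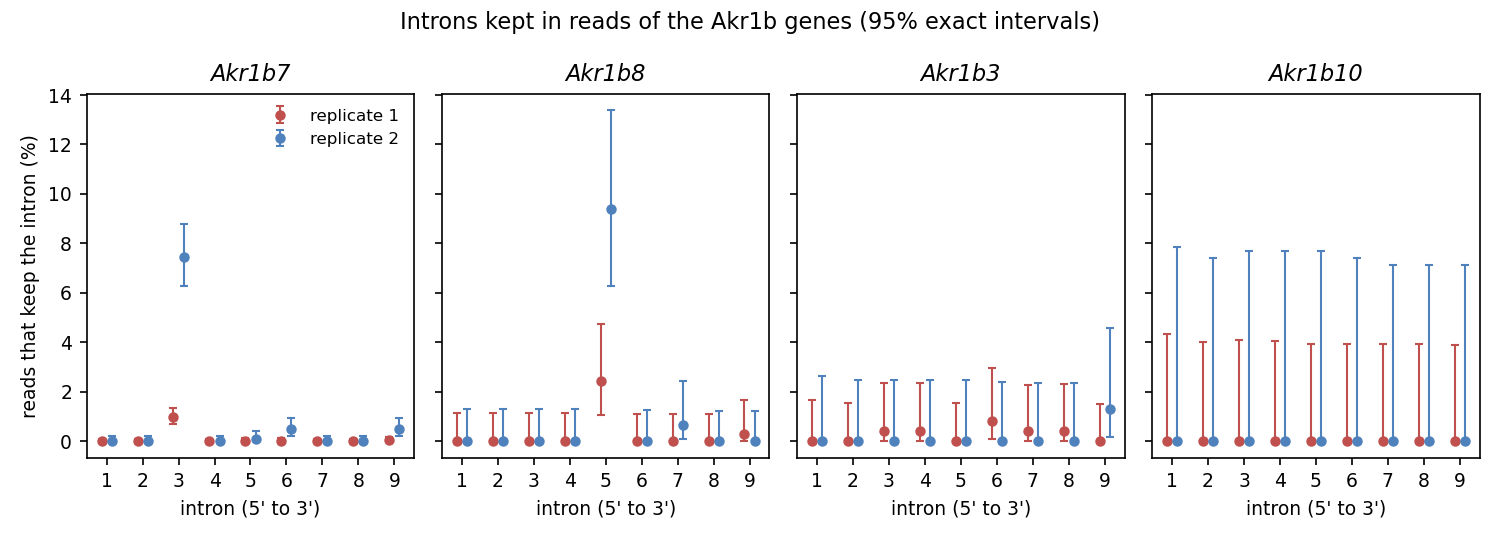
Share of reads that keep each intron (y axis, %) for the 9 introns (x axis, 5′ to 3′) of the 4 Akr1b genes in replicate 1 (red) and replicate 2 (blue), with exact 95% intervals. Intron 3 of Akr1b7 and intron 5 of Akr1b8 stand above the other introns of their genes, at 7.46% and 9.41% in replicate 2.

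Most other introns of the family were kept in few or no reads. A form of Akr1b7 with 8 exons and 2733 bases, which keeps introns 3 and 6, was read 1 time in replicate 1 and 6 times in replicate 2. Introns 6 and 9 of Akr1b7 were kept in 1 and 2 reads in replicate 1 and in 9 reads each in replicate 2, which is 0.0252% in replicate 1 against 0.492% in replicate 2 for intron 6 (adjusted p = 0.0102) and 0.0510% against 0.493% for intron 9 (adjusted p = 0.0313, same exact test). Many of these reads also keep intron 3, as in the 2733-base form and in a form with 4 reads in replicate 2 that keeps introns 3 and 9. The tests of introns 3, 6 and 9 are therefore not independent. Of the other introns of Akr1b7, introns 1, 2, 4, 7 and 8 were kept in 0 reads in both libraries. By the rule that an exon must reach at least 20 bases past both ends of the intron, no read of Akr1b10 kept one. An unspliced Akr1b10 model with 2 reads in replicate 2 does cover all of intron 9, but it reaches only 1 base into exon 9 and was not counted. With 83 to 93 informative reads in replicate 1 and 45 to 50 in replicate 2 a share of up to 7.87% for a single intron lay within the interval. In Akr1b3 no intron was kept in more than 2 reads of a library.

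A second new Akr1b7 form leaned the other way. It has all 10 exons, with exon 9 extended at its 3′ end by 14 bases (chr6:34421146-34421159), a length that is not a multiple of 3. It had 67 reads in replicate 1 (1.67%, interval 1.30 to 2.11%), against 13 in replicate 2 (0.699%, interval 0.373 to 1.19%). Counted over all models by the splice site used, the later site took 69 reads in replicate 1, with 3923 at the annotated site, and 15 reads in replicate 2, with 1818 at the annotated site. These are 1.73% in replicate 1 (interval 1.35 to 2.18%), against 0.818% in replicate 2 (interval 0.459 to 1.35%). The intervals of the libraries did not overlap in either count, though in the second they met to within rounding. They cover counting error only, and the share of forms over all genes that differ as far was not computed. The same intron chain was classed as a new combination of known splice sites in replicate 1 and as holding a new splice site in replicate 2. No test was run on this form.

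Akr1b3 had 1 recurrent new form, with 11 exons. It adds to the main transcript a 69-base exon between exons 1 and 2, at chr6:34316581-34316649 on the minus strand, that GENCODE M21 holds in the shorter coding transcript Akr1b3-205. The 11-exon form had 12 reads in replicate 1 (4.94%, interval 2.58 to 8.47%), against 6 in replicate 2 (3.82%, interval 1.42 to 8.13%). Over all models, the extra exon was included in 12 of 229 informative reads in replicate 1 (5.24%) and 7 of 145 in replicate 2 (4.83%), and the intervals overlap widely. Its sequence is shown because it shows what the form would add to the coding frame, which it enters at a codon boundary.
Akr1b3 extra exon: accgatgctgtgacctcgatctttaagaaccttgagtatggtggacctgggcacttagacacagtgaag
Read in the frame of exon 1, the exon adds 23 codons and holds 0 stop codons, which would lengthen the coding sequence to 1017 bases. No read supported Akr1b3-205 itself, and the retained-intron transcript Akr1b3-206 had 0 reads in replicate 1 and 2 in replicate 2. The other retained-intron transcript with a read, Akr1b3-204, had 1 in replicate 1 alone. Of the further annotated transcripts of Akr1b10, Akr1b10-205 had 2 reads in replicate 1 and 1 in replicate 2, while Akr1b10-202 and Akr1b10-203 had 1 read each in replicate 1 alone.

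**Figure D5:**
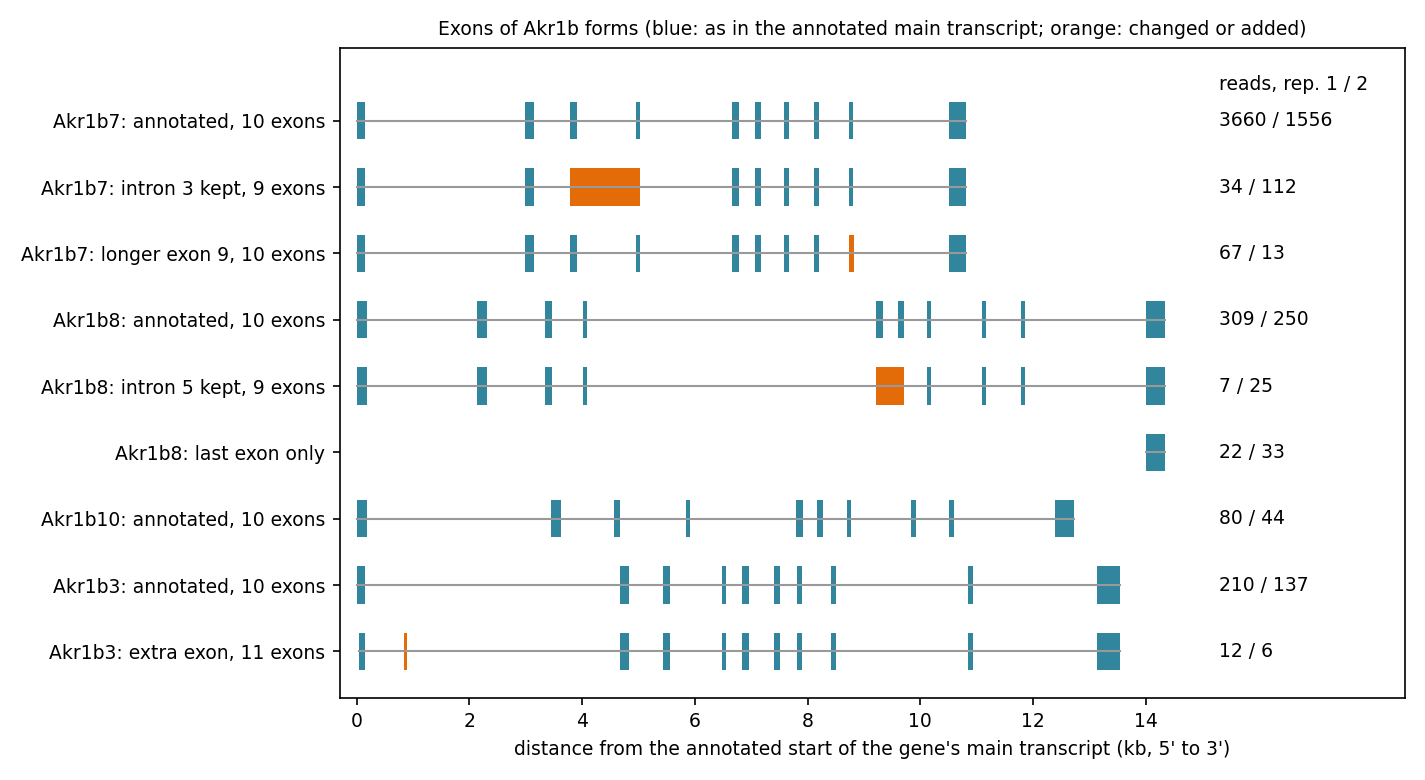
Exons of the annotated main transcript and of the leading new forms of each Akr1b gene by distance from the annotated start (x axis, kb), with reads in replicate 1 and replicate 2 at the right and changed or added exons in orange. Replicate 1 holds 34 and replicate 2 holds 112 reads of the Akr1b7 form with intron 3 kept, and for the longer exon 9 replicate 1 holds 67 and replicate 2 holds 13.

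A few models joined exons of more than 1 Akr1b gene. Their reads numbered 11 of 4713 in replicate 1 (0.233%, interval 0.117 to 0.417%) on 8 models and 2 of 2401 in replicate 2 (0.0833%, interval 0.0101 to 0.301%) on 1 model. The model seen in both libraries, with 4 reads in replicate 1 and 2 in replicate 2, splices exon 5 of Akr1b10 to exon 6 of Akr1b7, and so begins in the exon printed above that differs from its Akr1b7 counterpart at 3 of 123 bases. A model with 1 read starts in exon 1 of Akr1b8, goes on through exons 2 to 6 of Akr1b10 and ends with exons 7 to 10 of Akr1b7. Both other same-strand models, with 1 read each, join exons 5 and 6 of Akr1b8 to exons 5 to 10 of Akr1b7, and 1 of them holds exons 5 and 6 of Akr1b10 between these. A further 4 models with 1 read each, all in replicate 1, were given to Akr1b3 and cover Akr1b8 exons on the opposite strand. Whether these joins arose in the cells, in library making or in alignment was not tested, and reads shared between such similar genes are uncertain.

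Little else was transcribed around the family. The annotated neighbour with the most reads within 100 kb was Bpgm, which makes and breaks down 2,3-bisphosphoglycerate, with 67 reads in replicate 1 and 26 in replicate 2 at 53.1 kb from Akr1b7. Gm13857, which lies opposite Akr1b7, had 1 read in replicate 1 and 7 in replicate 2, Gm14546, opposite Akr1b3, had 0 in replicate 1 and 1 in replicate 2, and Gm13859 had 1 in replicate 1 and 2 in replicate 2. The counting was not stated to use strand in the sources used here, so reads of antisense partners are uncertain. Gm13858 had no read. Pooling every model on the same strand whose exons overlap a gene put the mean level of Akr1b10 at 66.4 CPM, that of Akr1b8 at 305 CPM and that of Akr1b7 at 2416 CPM, and left Akr1b3 at 170 CPM.

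The 250 bases upstream of the RefSeq starts of Akr1b7, Akr1b8 and Akr1b10 (RefSeq, GRCm38.p6) are shown because these neighbouring genes differ widely in level. The windows are chr6:34412112-34412361 for Akr1b7, chr6:34353896-34354145 for Akr1b8 and chr6:34383997-34384246 for Akr1b10, all on the plus strand. The RefSeq starts lie downstream of the GENCODE M21 starts used for the reads, by 28 bases in Akr1b7, 27 in Akr1b8 and 29 in Akr1b10. The last bases of each window are therefore in exon 1 of the GENCODE transcript, and distances below are from the RefSeq starts. Capitals mark matches, on either strand, to the motifs spelled out after the windows.
Akr1b7 upstream: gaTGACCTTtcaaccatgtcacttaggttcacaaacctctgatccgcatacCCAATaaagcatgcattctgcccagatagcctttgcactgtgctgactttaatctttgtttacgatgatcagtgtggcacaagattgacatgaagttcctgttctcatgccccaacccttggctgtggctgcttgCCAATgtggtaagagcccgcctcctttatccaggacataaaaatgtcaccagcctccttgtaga
Akr1b8 upstream: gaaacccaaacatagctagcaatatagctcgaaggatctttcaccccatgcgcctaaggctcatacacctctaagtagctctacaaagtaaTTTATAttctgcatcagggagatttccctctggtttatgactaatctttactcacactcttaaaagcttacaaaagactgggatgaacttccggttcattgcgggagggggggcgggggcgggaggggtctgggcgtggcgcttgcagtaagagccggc
Akr1b10 upstream: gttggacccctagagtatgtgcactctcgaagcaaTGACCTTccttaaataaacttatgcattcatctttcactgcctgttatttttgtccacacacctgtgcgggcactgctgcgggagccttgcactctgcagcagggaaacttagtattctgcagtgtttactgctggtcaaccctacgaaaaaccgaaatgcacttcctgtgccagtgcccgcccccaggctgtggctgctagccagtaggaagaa
The letters AAGGTCA, the core read by orphan nuclear receptors such as NR5A1, occurred on the opposite strand 248 bases before the Akr1b7 start and 215 bases before that of Akr1b10, and in 4.08% of all 32851 windows of this length. CCAAT occurred at 199 and 64 bases before the Akr1b7 start and in 33.8% of all windows. TATAAA occurred on the opposite strand 159 bases before the Akr1b8 start and in 12.4% of windows. TTGCNNAA, found in 9.56% of windows, and TGACNNNGC, found in 10.2%, did not occur in these 3 windows. No matches overlapped, and a match of letters is a description and not a binding site.

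Genes that work beside the family were taken from lists, and their calls below are those of the binomial test, which 11.6% of all genes passed. With a minimum of 50 reads, 1270 of 6491 genes passed it. With edgeR's test, Akr1c18 alone of all listed genes was called. The list for the polyol pathway, which Akr1b3 enters, also takes in genes beside the pathway. In this list 0 of 5 tested genes were called, and 0 had an unadjusted p below 0.05, with a median log2 ratio of -0.03 beside a median near 0 over all genes. Sord, the dehydrogenase that turns the sorbitol made by aldose reductase into fructose, had 59.5 CPM in replicate 1 and 62.1 CPM in replicate 2. The other leading genes of the list were Hk1, a hexokinase, at 70.8 CPM in replicate 1 and 57.8 CPM in replicate 2, and Khk, which phosphorylates fructose, at 56.6 CPM in replicate 1 and 41.8 CPM in replicate 2. Of the osmotic response genes, 0 of 4 tested were called and 1 had an unadjusted p below 0.05, with a median of -0.04. With lists this small, counts of 0 lie near the share of all genes called. Slc6a6, the taurine transporter, led at 255 CPM in replicate 1 and 233 CPM in replicate 2, followed by the chaperone gene Hspa4l at 80.7 CPM in replicate 1 and 97.4 CPM in replicate 2 and the inositol transporter gene Slc5a3 at 4.95 CPM in replicate 1 and 17.1 CPM in replicate 2.

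For the ACTH response of the cortex, to which Akr1b7 belongs, 3 of 9 genes were higher in replicate 1 and 5 were higher in replicate 2, with a median log2 ratio of -0.49. Over all genes, calls toward replicate 1 made up 5.88% and calls toward replicate 2 made up 5.74%. With a minimum of 50 reads, 658 of 6491 genes were higher in replicate 1 and 612 in replicate 2. By edgeR's test 0 of these 9 genes were called, while all 9 had an unadjusted p below 0.05 in the binomial test. Akr1b7 went with the 3 that were higher in replicate 1, Cyp11a1, Cebpb and Nr4a1. Cyp11a1, the side-chain cleavage enzyme, had 19261 CPM in replicate 1 and 18500 CPM in replicate 2. With that many reads it was called at a log2 ratio of only 0.09. Star, the mitochondrial cholesterol carrier, was higher in replicate 2, with 8352 CPM in replicate 1 and 12540 CPM in replicate 2. Cebpb, a transcription factor gene, had 2903 CPM in replicate 1 and 2615 CPM in replicate 2. The receptor gene Mc2r had 159 CPM in replicate 1 and 121 CPM in replicate 2 with no call.

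In the list for the prostaglandin F pathway, which also holds prostaglandin E synthase genes, 1 of 9 tested genes was higher in replicate 1 and 0 in replicate 2, with a median of 0.13. Ptges3, a prostaglandin E synthase and co-chaperone gene, led at 250 CPM in replicate 1 and 263 CPM in replicate 2. Ptgr2, which reduces 15-keto-prostaglandins, was the gene called, at 206 CPM in replicate 1 and 146 CPM in replicate 2, and Ptges2 had 115 CPM in replicate 1 and 107 CPM in replicate 2. Ptgs2, an inducible cyclooxygenase gene, had 0 reads in both libraries, and Ptgs1 had 12 reads in replicate 1 and 15 in replicate 2. Among genes that handle lipid aldehydes, 3 of 11 were higher in replicate 1 and 1 in replicate 2, with a median of 0.15. The gene higher in replicate 2 was Aldh1a1, which oxidises retinaldehyde, at 31.1 CPM in replicate 1 and 83.5 CPM in replicate 2. The alcohol dehydrogenase gene Adh1 led with 3639 CPM in replicate 1 and 3443 CPM in replicate 2, then the aldehyde dehydrogenase gene Aldh2 with 1761 CPM in replicate 1 and 1910 CPM in replicate 2, and the glutathione transferase gene Gstm1 with 333 CPM in replicate 1 and 307 CPM in replicate 2.

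Of the other aldo-keto reductases, 1 of 9 tested was higher in replicate 1 and 2 in replicate 2, with a median log2 ratio of 0.20. The 3 with the highest mean level were Akr1d1, a steroid 5β-reductase, at 2518 CPM in replicate 1 and 2973 CPM in replicate 2, Akr1c18, a 20α-hydroxysteroid dehydrogenase, at 312 CPM in replicate 1 and 2760 CPM in replicate 2, and Akr1cl at 1532 CPM in replicate 1 and 1402 CPM in replicate 2. Of retinoid genes 0 of 5 tested were called and 0 had an unadjusted p below 0.05, with a median of 0.21, led by Rdh14 at 59.5 CPM in replicate 1 and 46.0 CPM in replicate 2, Dhrs3 at 32.6 CPM in replicate 1 and 36.4 CPM in replicate 2 and Rdh10 at 31.8 CPM in replicate 1 and 32.1 CPM in replicate 2. Of NRF2 targets 2 of 6 tested were higher in replicate 2 and 0 in replicate 1, with a median of -0.08. These were Srxn1, the sulfiredoxin gene, at 190 CPM in replicate 1 and 540 CPM in replicate 2, and Txnrd1, a thioredoxin reductase gene, at 144 CPM in replicate 1 and 270 CPM in replicate 2, and Gclc, a subunit of glutamate-cysteine ligase, had 120 CPM in replicate 1 and 134 CPM in replicate 2.

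The genes nearest to each Akr1b gene by level in the 2 libraries were taken by Euclidean distance of log2(CPM + 1). Rheb matched Akr1b3 exactly, with 243 reads in replicate 1 and 157 in replicate 2, and Txnl1 came next with 244 in replicate 1 and 158 in replicate 2. Pebp1, at 2611 CPM in replicate 1 and 2029 CPM in replicate 2, and Ctsb, at 2548 CPM in replicate 1 and 1833 CPM in replicate 2, were nearest to Akr1b7. Glg1 and Rps16 were nearest to Akr1b8, and Tpgs1 and Hk1 were nearest to Akr1b10. Over 2 libraries this is a likeness of level only.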

How the data were processed

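Adrenal long-read RNA libraries were analysed from the deposited tables. Per the file headers, the authors deposited for each library counts of long reads assigned to transcript models on mm10 with GENCODE M21, with TALON field names, and a matching annotation of exon positions. The counts carry no normalization. Which aligner, versions and filters were used is not given in the sources used here. Replicate 1 held 1478362 reads and replicate 2 held 1007541, of which 1412947 in replicate 1 and 933963 in replicate 2 fell on annotated mouse genes. ERCC spike-ins were 1.24% of reads in replicate 1 and 1.54% in replicate 2 and were left out.

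Counts were summed per gene, CPM used these totals, and ratios used TMM factors (0.989 and 1.01, edgeR 4.0.16) with a prior of 0.5 reads. The binomial test took genes with 10 or more reads in all, and the isoform test those with 20 or more per library, at an adjusted p of 0.05. An intron counted as kept when an exon of the same gene extended at least 20 bases past both of its ends. Unannotated models were matched by intron chain, single-exon ones pooled per gene. Genes named were the 4 members, the 3 highest of each list, the 2 nearest in level, neighbours within 100 kb, and isoforms with 5 or more reads. Nr4a1, Mc2r, Ptgs1, Ptgs2 and Aldh1a1 were named after their values were seen, and the test of kept introns was added then. Identity was computed on coding bases, as protein sequences were not used here. The members and lists were chosen with earlier results of these data known. The steps were tested on simulated data drawn with counting error alone. Such data cannot show calls that arise from further spread between libraries. Alternatives covered scaling with DESeq2 1.42.0 size factors, totals and spike-ins, read minimums of 1 and 50, model classes, thinning (seed 20211) and each library alone. Other tools were R 4.3.3, Python 3.11.15 and SciPy 1.17.1.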

Additional observations from a re-analysis of the deposited data

Results flagged for a closer look

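New gene models on the minus strand, not assigned to an annotated gene, held 6 reads in replicate 1 on 5 models and 10 reads in replicate 2 on 4 models within the span of the Akr1b genes and 100 kb on either side. Whether they overlap annotated genes was not checked. The comparisons above did not use these reads. Both values lie above the 3 reads that a count of 0 allows. New models on the plus strand, the strand of Akr1b7, Akr1b8 and Akr1b10, had 0 reads in both libraries.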

How the results depend on the processing

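Of 113 values recomputed under alternatives, 93 kept their direction and their side of the threshold or moved by less than the spread. Counts of genes or introns passing a test were instead held to a set fold of the main count. With 2 libraries, leaving out either one always moves a mean by less than the SD. The values for each library alone are therefore among the 93 by construction and say nothing on stability. With the ERCC scaling, genes past the binomial test numbered 2360, of which 89.7% were higher in replicate 1 against 50.6% with TMM scaling, the log2 ratio of Akr1b3 passed at 0.39 and that of Akr1b8 no longer passed at -0.13. With edgeR's exact test 27 genes passed, and the log2 ratios of Akr1b7, 0.55, and Akr1b8, -0.46, did not. Counting known transcripts only gave Akr1b3 a log2 ratio of -0.071, turned in sign and not called under either count. The mean level of Akr1b3 became 162 CPM when scaled to all mouse reads, 198 CPM with known transcripts only and 194 CPM without incomplete and genomic models. Without incomplete and genomic models, 53 genes passed the main isoform test, and the difference for Akr1b10 was -4.75 points, turned in sign and not called. The cause of these shifts was not tested. Leaving out either library gave mean levels of 1990 to 2842 CPM for Akr1b7, 253 to 354 CPM for Akr1b8, 168 to 172 CPM for Akr1b3 and 57.8 to 69.4 CPM for Akr1b10. Chosen after seeing the data, a looser rule for kept introns (1 base past both ends) gave 9.38% for Akr1b7 intron 3 in replicate 2. With 54 reads in replicate 2, Akr1b10 limits what can be seen of its isoforms.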
